A study of Mus musculus with 2 samples.

Results

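The regions described here had the most Control tags among the places where Control mouse chondrocytes gave more captured DNA than Uhrf1 conditional knockout (cKO) cells. No library of uncaptured DNA was used, so a tag count alone does not measure methylation. They are the 420 listed regions on chromosomes 1 to 19 with 400 or more Control tags, out of 34675 listed autosomal regions and 35861 in all. A tag is 1 sequenced read end kept after duplicate removal. A further 11 regions of X and Y passed 400 tags and were left out by the rule.

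The cKO group and the Control group were each 1 library of primary chondrocytes from C57BL/6 mouse knee cartilage at postnatal day 3. Both groups had received the recombinant bone morphogenetic protein rhBMP-2, which promotes chondrocyte maturation, for 24 hours (100 ng/ml). Methylated DNA sheared to about 300 bp was captured with the MBD2 protein and sequenced. The cKO library kept 15039206 tags (76.1% of its total) and the Control library 9782276 (44.8%). The labels name neither the Cre line that drove the deletion nor the number of animals behind each library. MBD capture does not measure gene expression, so the chondrocyte label could not be checked against marker genes.

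As background, Uhrf1 binds hemimethylated CpG after replication and recruits Dnmt1, which copies the methylation pattern onto the new strand. Most methylated CpG of a mammalian genome lies in gene bodies, in intergenic sequence and in repeated or retrotransposed copies, whereas CpG island promoters of active genes are mostly free of it. MBD2 capture gives most signal where many methylated CpG stand close together. The members were chosen by their Control tags, so tag counts, lengths, folds and scores of the same list are descriptions of them and no test was made. With 1 library a group, no difference has a replicate check. The fold of a region is the authors' ratio of Control signal at the summit over the local background from cKO, and it runs above 1 where Control is higher.

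The 4 members that reached into an annotated promoter window show what such DNA looks like at a gene start. Each stretch below is the part of the RefSeq window (250 bases before to 50 after the annotated start, GRCm38.p6) that lies inside the member, written 5′ to 3′ along the gene, with each CpG in capitals as CG, the dinucleotide that carries methylation. The motif reads the same on both strands, and 94.8% of the 31396 autosomal windows hold at least 1 copy.

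Amd2 (chr10:35711842-35711939, minus strand): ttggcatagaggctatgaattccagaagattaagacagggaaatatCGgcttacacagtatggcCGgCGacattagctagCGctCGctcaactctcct
Taf13 (chr3:108571449-108571500, plus strand): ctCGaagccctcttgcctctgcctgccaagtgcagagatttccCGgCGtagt
Gm40685 (chr10:69311817-69312116, plus strand): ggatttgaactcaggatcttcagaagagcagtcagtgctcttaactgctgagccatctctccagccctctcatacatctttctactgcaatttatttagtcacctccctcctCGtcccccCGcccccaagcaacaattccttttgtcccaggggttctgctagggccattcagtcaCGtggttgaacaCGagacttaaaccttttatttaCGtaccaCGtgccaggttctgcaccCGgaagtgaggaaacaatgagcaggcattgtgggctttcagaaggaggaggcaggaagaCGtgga
Olfr224 (chr11:58570519-58570818, minus strand): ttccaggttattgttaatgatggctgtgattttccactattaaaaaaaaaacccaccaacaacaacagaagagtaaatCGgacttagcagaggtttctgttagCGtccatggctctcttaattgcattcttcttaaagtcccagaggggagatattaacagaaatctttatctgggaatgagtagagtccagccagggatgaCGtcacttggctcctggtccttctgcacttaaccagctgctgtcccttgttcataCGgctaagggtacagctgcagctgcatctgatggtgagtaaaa

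Amd2, a copy of the gene for S-adenosylmethionine decarboxylase of polyamine synthesis, shared 98 bases with its member and these held 5 CG. The member itself ran from 35711055 to 35711939 of chromosome 10 with 485 Control tags at 5.49-fold. Taf13, which encodes a subunit of the general transcription factor TFIID, shared 52 bases with 3 CG, at the far edge of a window with 20 CG in all. The member beside it held 408 tags at 10.66-fold. The long noncoding gene model Gm40685 and the olfactory receptor gene Olfr224 had their whole 300-base windows inside members, with 8 and 4 CG. Those members held 523 tags at 8.21-fold and 419 tags at 12.05-fold. The median autosomal window held 7 CG, so 2 of the 4 windows were above it and 2 were below. Promoter windows were available for 18 of the 19 autosomes, and on these 4 of 401 members (0.998%, 95% Wilson interval 0.389 to 2.54) reached into a window, against 318 of 33079 other regions (0.961%, 0.862 to 1.07). No member overlapped any of 919 annotated miRNA hairpins, whereas 17 other autosomal regions did.

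The 420 members made up 1.21% of the autosomal regions and held 4.70% of their Control tags and 2.25% of their bases. They summed to 210075 tags over 373 kb, which was 2.15% of all kept Control tags. Most stood close to the limit: 324 had 400 to 499 tags, 89 had 500 to 999 and 7 had 1000 or more. The median member had 440 tags and a length of 823 bp (interquartile range 720 to 994), against 103 tags and 475 bp (383 to 568) for the other autosomal regions. A length of at least 1000 bp was listed for 101 members (24.0%) and for 89 of the other 34255 regions (0.260%). The median density was 551 tags per kb in members and 216 in the others, a measure that the rule on tags also raises. Across the members, Spearman's rho between tags and length was 0.484, where the 420 regions share 1 library and 1 lower limit on tags.

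**Figure D1:**
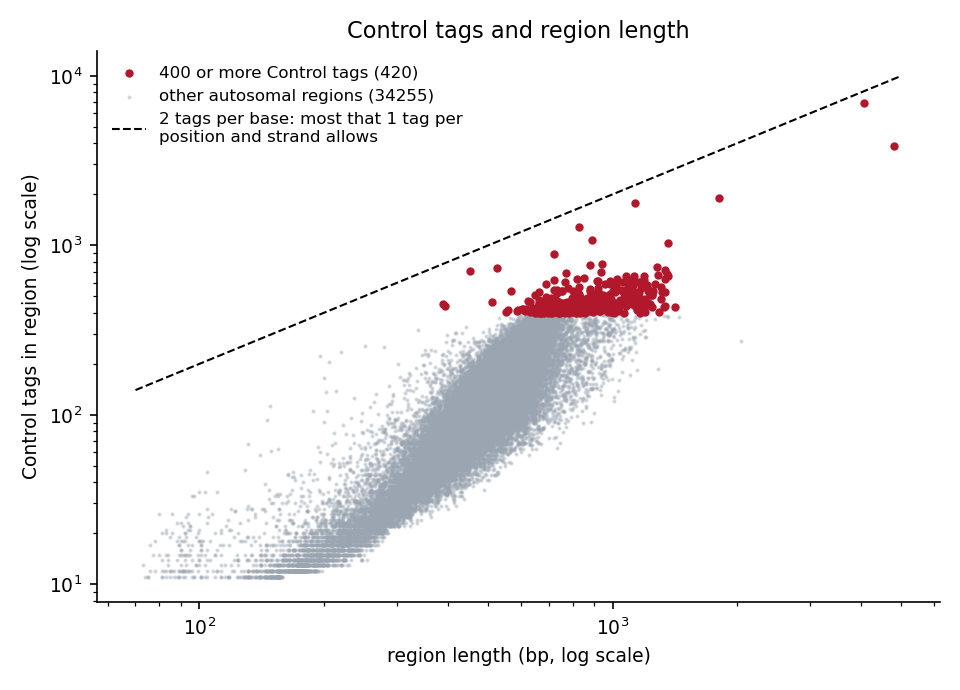
Control tags against region length for each autosomal region, both on log scales, with the 420 members in red, the 34255 other regions in grey, and a dashed line at 2 tags per base. The interquartile range of member length is 720 to 994 bp, and the 10 members nearest to the line hold 52.9% or more of the tags it allows.

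Close to the limit, there were 76 members with 400 to 409 tags and 72 regions with 390 to 399. There were 10 members with exactly 400 tags, of which 5 are given here. In Prrc2b on chromosome 2 the fold was 16.02, and in Tmem232 on chromosome 17 it was 7.40. The other 3 of these 5 lay outside coding genes, nearest to Pi15, Rab11fip4 and Lrfn5, at 8.27-fold, 6.57-fold and 6.17-fold. Of the 7 regions with 399 tags, 5 are given in the same way. Those in Nxn on chromosome 11 and Nedd4l on chromosome 18 had folds of 10.28 and 5.42, and those nearest to Ptk2, Dynlt1b and Lcor had folds of 8.05, 14.30 and 10.21. The folds just inside and just outside the limit overlapped.

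A few members came closer than the rest to the highest density that the duplicate rule allows. Because at most 1 tag was kept per position, taken here per strand, a region can hold at most 2 tags per base. The median member held 27.5% of this ceiling (interquartile range 24.1 to 30.6), the median other region 10.8%. Only 10 members and 3 other autosomal regions held 50% or more of it. These 10 held 441 to 6918 tags and had folds of 2.15 to 5.08, below the member median of 9.80, and 7 of them were intergenic. The tag count of any region thus has an upper bound set by the processing, and these 10 stood at 52.9% to 85.4% of it. Whether the bound lowered their tag counts or folds was not tested.

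The region with the most tags lay on chromosome 14 at 19415688 to 19419736, 116 kb from the nearest protein-coding gene, and held 6918 tags at 3.26-fold, or 85.4% of the ceiling. It alone carried 3.29% of all tags in the 420 members. The longest member, at 3100005 to 3104788 of chromosome 11, was 4784 bp long with 3851 tags at 6.25-fold, and lay 31.3 kb from Sfi1, a gene for a centrosomal protein. A 1807 bp member of chromosome 4 (3089486 to 3091292) held 1912 tags at 3.87-fold. These 3 places hold more tags than any other member, all 3 of them outside protein-coding genes. Within Mdga2, a gene for a neuronal cell surface protein, an 889 bp member at 67059153 to 67060041 of chromosome 12 held 1078 tags at 3.59-fold and 60.6% of the ceiling. Short regions could be as dense: a 451 bp member of chromosome 9 (35305178 to 35305628) had 710 tags, 2.37-fold and 78.7% of the ceiling. The shortest member of all was 388 bp long, at 56575400 to 56575787 of chromosome 3, with 452 tags, 3.87-fold and 58.2% of the ceiling.

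Other members among the 12 most tagged were less dense, such as those in Obox6 and Galns. Obox6, an oocyte-specific homeobox gene of chromosome 7, held a 1362 bp member at 15837055 to 15838416 with 1029 tags at 7.57-fold and 37.8% of the ceiling. Galns, which encodes the lysosomal enzyme that removes sulfate from keratan sulfate and chondroitin sulfate, held a 941 bp member of chromosome 8 (122606548 to 122607488) with 778 tags at 10.78-fold and 41.3% of the ceiling. Length and tags did not always go together. Meis1, a homeobox gene of limb patterning and blood formation, held the longest member within a coding gene, 1416 bp on chromosome 11 (19009169 to 19010584), with only 435 tags and the lowest share of the ceiling of any member, 15.4%. Epg5, an autophagy gene of chromosome 18, held a 1357 bp member with 675 tags at 11.00-fold, and Ppm1h, a phosphatase gene of chromosome 10, held a 1341 bp member with 530 tags at 13.93-fold. The remaining 3 of the 10 longest lay outside coding genes, nearest to Dynlt1b, Gdi2 and Hikeshi, with 657, 712 and 632 tags at 10.63-fold to 13.96-fold. The repeat content of these places was not analysed here, and no header or label says how reads that match several places were treated.

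The authors' fold and FDR describe the members further. The FDR is the caller's percent of regions that swapping the libraries would give at the same p or better. Among the members, 207 (49.3%) had a fold of 10 or more, against 64.6% of all listed regions. Of the 420, 415 (98.8%) had an FDR of 5% or less, against 56.9% of all listed regions. The rule used the Control tags of this same contrast, so nothing is read from either count. The median fold was 9.80 in members (interquartile range 6.29 to 13.4) and 12.1 in the other autosomal regions (8.54 to 18.1). Folds under 4 were listed for 37 members (8.81%) and 58 of the others (0.169%). Folds of 20 or more were listed for 11 members (2.62%) and 7258 of the others (21.2%). Every listed region passed the caller's p limit, and a region with few tags needs a higher fold to pass it. The median fold was 21.9 in regions with up to 49 tags, 12.3 at 300 to 399 tags and 9.6 at 400 to 499. The fold contrasts between members and others are therefore not read as a trait of members. The score, the negative log10 of the caller's p times 10, stood at exactly 3100.00 in 12 members and in none of the other autosomal regions. The 12 include both of the most tagged members and cannot be ranked by score. No member had an FDR of 100%, and the 5 above 5% had folds of 2.78 to 3.30.

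**Figure D2:**
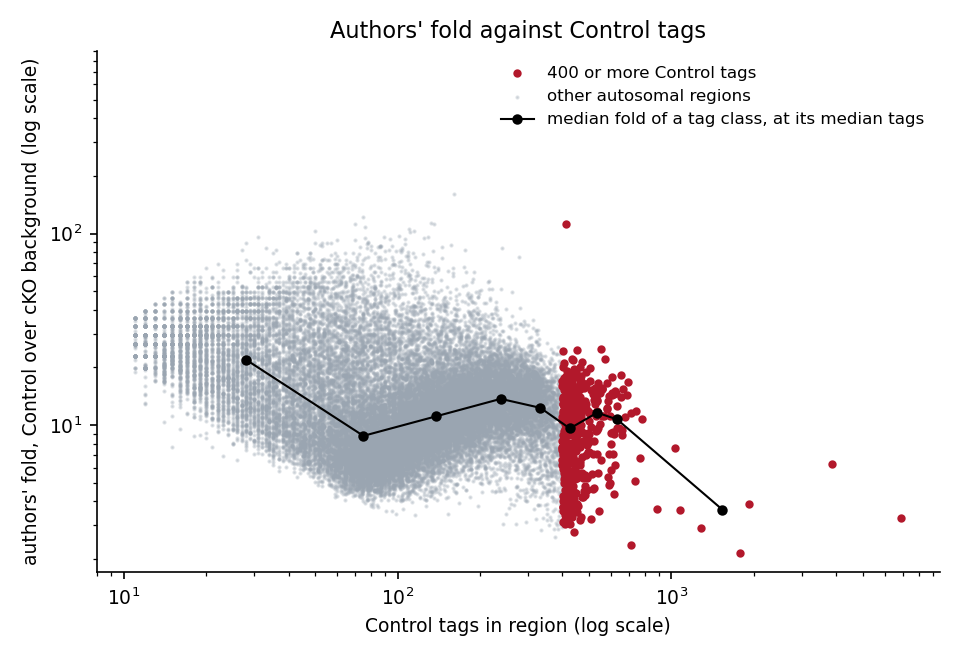
The authors' fold against Control tags for each autosomal region, both on log scales, with members in red, other regions in grey, and in black the median fold of 9 tag classes. The class medians run from 21.9 under 50 tags to 8.78 at 50 to 99, up to 13.7 at 200 to 299 and down to 3.62 at 800 or more.

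The 5 smallest folds were 2.15, 2.37, 2.78, 2.90 and 3.03. Those of 2.15, 2.37 and 2.90 belong to places at 77.4% to 79.0% of the ceiling. The other 2 lay on chromosome 5 (61219332 to 61220005, 440 tags, FDR 24.06%) and chromosome 16 (26317216 to 26317852, 409 tags, FDR 3.02%). They stood at 32.6% and 32.1% of the ceiling. Their densities, 653 and 642 tags per kb, were above the members' upper quartile of 612.

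Within the members, higher folds stood with greater length and lower density, which run inversely to each other where tags span a narrow range. Spearman's rho was 0.345 between fold and length and -0.378 between fold and tags per kb over the 420 members, which share both libraries and their depth. In the other autosomal regions, which held 11 to 399 tags, the values were -0.166 and -0.162. The sign for length was the opposite of that in members, but the tag ranges differ. Regions just under the limit were not compared alone, so the sign is not read as a trait of members. The 37 members under 4-fold had a median length of 699 bp and 628 tags per kb, whereas the 45 at 16-fold or more had 945 bp and 484 tags per kb. Summits fell in a protein-coding gene for 16 of the 37 (43.2%) and for 26 of the 45 (57.8%).

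The largest fold of any member, 112.79, belonged to a 1191 bp region on chromosome 4 at 118547552 to 118548742 with 413 tags, 3.74 kb from Tmem125, a gene for a transmembrane protein. The second largest was 25.06, so the member near Tmem125 stood apart from all the others. The 25.06-fold member was listed within Mafg, which encodes a small Maf transcription factor, at 120627752 to 120628630 of chromosome 11 with 551 tags. Near Rrp9, a gene of ribosomal RNA processing, a member at 106490781 to 106491866 of chromosome 9 had 452 tags at 24.78-fold. Atp7b, the copper transporter gene, held one at 21992824 to 21993985 of chromosome 8 with 401 tags at 24.29-fold. Mrpl47, a gene of the mitochondrial ribosome, held one at 32729392 to 32730383 of chromosome 3 with 402 tags at 20.16-fold. The other 5 of the 10 largest folds, 21.19 to 22.14, were all outside coding genes. The nearest genes were Gxylt1, Mc2r, Srsf10, Zcchc9 and Kit, at 126, 237, 18.2, 1.38 and 78.7 kb. The one 126 kb from Gxylt1, a xylosyltransferase gene of chromosome 15, had a listed score of 3216.25, with 571 tags at 22.14-fold (93113440 to 93114266).

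By place, the members were spread much like the other regions, except that a larger share lay in pseudogenes. Summits of 215 members (51.2%, 95% Wilson interval 46.4 to 55.9) lay inside protein-coding genes and more than 1 kb from the gene ends, against 53.3% of the other autosomal regions. Intergenic summits numbered 137 (32.6%, 28.3 to 37.2), against 34.5%. Summits within 1 kb of a protein-coding gene end numbered 22 (5.24%, 3.48 to 7.80), against 4.64%. Other gene models took 46 (11.0%, 8.31 to 14.3), against 7.52% (7.25 to 7.80); most of this class, 24 of the 46, lay in pseudogenes. These intervals cover counting error only. Outside coding genes, the median distance to the nearest one was 22.2 kb for 195 members and 26.3 kb for 15115 others. Only 9 members lay more than 500 kb away (2.14%, against 2.10%), the farthest 1315 kb from Mrpl39 on chromosome 16 at 83402820 to 83403595, with 444 tags at 5.25-fold. Of these 9, 8 had folds of 2.15 to 5.95, and the exception was a member in the immunoglobulin kappa locus Igk on chromosome 6 (70129211 to 70130089) with 418 tags at 14.78-fold. Igk is not classed as protein-coding in the gene models used, so the distance of that member was taken to Rpia, 636 kb away.

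**Figure D3:**
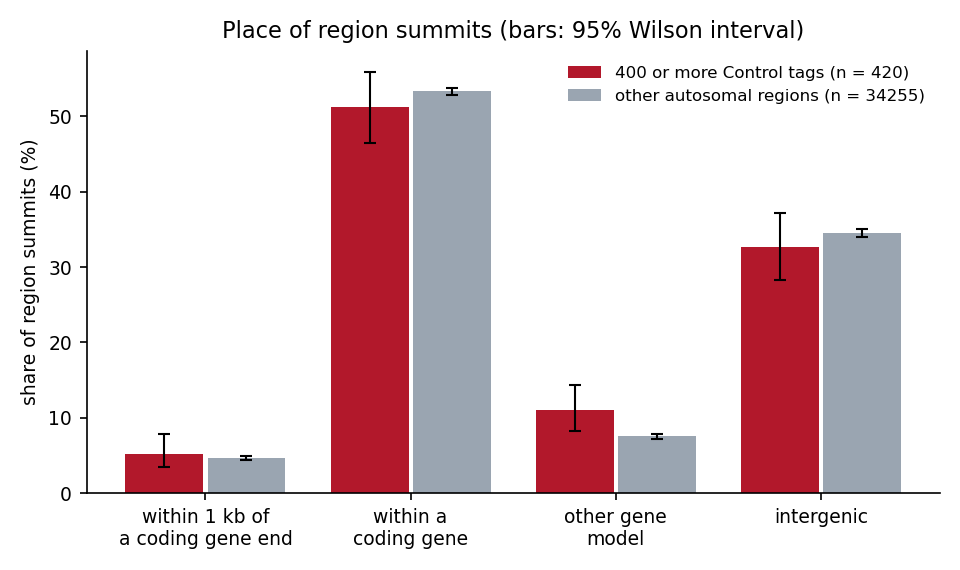
Share of region summits in each of 4 places, in percent, for the 420 members (red, left) and the 34255 other autosomal regions (grey, right), with 95% Wilson intervals for counting error. The pairs differ least at gene ends (5.24% and 4.64%), and in other gene models members had 11.0% and other regions 7.52%.

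Pseudogenes, which are mostly retrotransposed copies of messenger RNA that no longer encode a protein, held 34 member summits (8.10%, Wilson interval 5.85 to 11.1), against 595 of the other regions (1.74%, 1.60 to 1.88). Of the 34, 24 lay outside any protein-coding gene (5.71%, against 1.34%) and the remaining 10 within one. Long noncoding RNA genes outside coding genes showed no such excess, with 22 members (5.24%, 3.48 to 7.80) against 6.21%. By tag class the pseudogene share was 2.51% under 50 tags, 1.25% at 100 to 199, 3.62% at 300 to 399, 8.33% at 400 to 499 and 10.7% at 500 to 599. It was 1 of 32 at 600 to 799 tags and 0 of 8 at 800 or more.

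**Figure D4:**
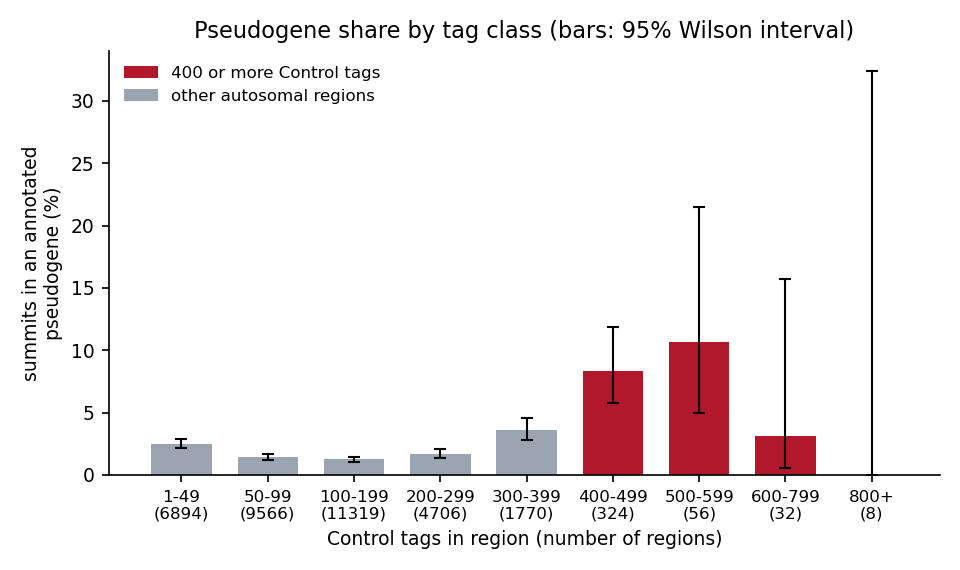
Share of region summits inside an annotated pseudogene, in percent, by Control tag class from low to high, with the number of regions under each bar and 95% Wilson intervals. Bars for classes of 400 or more tags are red, and the share was 8.33% at 400 to 499 tags against 3.62% at 300 to 399.

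The Amd family was noticed after its values were seen. Of 8 autosomal gene models with an Amd name, 5 had a listed region and 3 held a member, of which Amd2 is annotated as protein-coding and the other 2 as pseudogenes. The values were 539 tags at 5.59-fold in the pseudogene Amd-ps4 on chromosome 4 (51253468 to 51254467), 490 tags at 5.32-fold in Amd-ps3 on chromosome 18 (64449190 to 64450054) and 485 tags at 5.49-fold in Amd2 on chromosome 10. Amd-ps5 on chromosome 6 had a region of 320 tags at 15.37-fold, below the limit. Amd1, the parent gene of the family, held 3 regions of 90, 102 and 235 tags. Copies of a gene can share sequence, so how tags were divided among them is uncertain, and the sequence shared by these models was not analysed here.

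Copies of genes for ribosomal proteins were the other named group. The count took ribosomal protein symbols with a -ps suffix, 281 autosomal pseudogene models. Of these, 89 overlapped a listed region (31.7%) and 3 overlapped a member (1.07%). Rps12l1 on chromosome 7, a pseudogene without this suffix, was outside the count and held a member of 542 tags at 3.55-fold. Over all 9496 autosomal pseudogene models, 934 overlapped a listed region (9.84%) and 42 a member (0.442%). The 3 with the suffix were Rplp2-ps1 on chromosome 12 (480 tags, 4.55-fold), Rps6-ps3 on chromosome 9 (449 tags, 5.70-fold) and Rpsa-ps4 on chromosome 11 (420 tags, 8.83-fold). A chaperonin copy, Hspd1-ps3 on chromosome 11, had 406 tags at 8.90-fold, and a copy of a proton pump subunit gene, Atp6v0c-ps1 on chromosome 7, had 428 tags at 5.03-fold. The most tagged pseudogene member, 617 tags at 8.98-fold, lay in Gm5258 on chromosome 1 at 86323173 to 86324160.

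Within and beside protein-coding genes, few loci held more than 1 member. In all, 218 protein-coding genes (1.05% of 20665 autosomal ones) held a member summit, and 6 held more than 1. Cit, which encodes citron kinase, needed for the last step of cell division, held 4, the most of any gene. They lay at 49.2%, 82.8%, 91.4% and 99.8% of the way along its 164 kb from the 5′ end, with 522, 405, 422 and 522 tags and folds of 4.69, 8.51, 7.09 and 13.54. Of 27 regions of any tag count in Cit, these 4 were the members. The other 5 genes held 2 members each: Dmgdh, a mitochondrial enzyme of choline breakdown (535 and 500 tags), Kif21a, a kinesin (497 and 402), Cmip, a signalling adaptor (475 and 415), Dnah8, an axonemal dynein (463 and 423), and Zfhx3, a zinc finger homeobox gene (470 and 406). The 2 members in Cmip differed most, with 19.25-fold at 1.95% of the gene from the 5′ end and 5.26-fold at 75.9% of the gene. The 2 in Zfhx3 had 17.38-fold and 5.62-fold.

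Of the 22 members with a summit within 1 kb of a gene end, 14 were at a 3′ end, 6 at a 5′ end and 2 at genes whose strand was not listed. On the 18 autosomes with strand data, 3.49% of members (Wilson interval 2.09 to 5.77) were at a 3′ end, against 2.61% of other regions, and 1.50% (0.688 to 3.23) at a 5′ end, against 1.36%. Strand was listed for 16457 of the 20665 genes, so both shares are lower limits. Beside Cpt1b, the muscle carnitine palmitoyltransferase, a member on chromosome 15 at 89416074 to 89417262 had 656 tags at 18.15-fold. Its summit was 52 bp from the gene, whose strand was not listed. At the 3′ end of Pdgfa, which encodes a platelet-derived growth factor chain, a member at 138976413 to 138977135 of chromosome 5 had 626 tags at 14.72-fold. Other 3′ ends were those of Erg28, a sterol synthesis gene (505 tags, 17.08-fold), and Pam, a peptide-amidating enzyme (477 tags, 12.03-fold). The 5′ ends belonged to Amd2, Taf13, Olfr224, Cpa1, Cela3b and the zinc finger gene Zfp229. Cpa1 and Cela3b both encode pancreatic digestive enzymes, and their members had 451 tags at 13.11-fold and 450 tags at 8.18-fold. Along genes of known strand, members were spread over the whole length, with a median position of 0.515 of the gene from the 5′ end (n = 188), against 0.537 for other regions (n = 15222).

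For genes of cartilage, growth plate and bone the counts were too small to read. A member in the gene or within 5 kb was found for 282 of the 20665 autosomal protein-coding genes (1.36%). Among fixed lists it was found for 0 of 20 cartilage matrix and chondrocyte identity genes, 0 of 19 hypertrophy and ossification genes and 0 of 23 growth plate signalling genes. At a share of 1.36%, lists of this size would hold a member in less than 1 gene each, so 0 says little about them. The most tagged regions near these lists held 328, 202 and 332 tags. For BMP and TGF-beta signalling genes it was 3 of 27 (11.1%): Acvr2b, Bmp6 and Smad7. Acvr2b, a type II receptor for activins and some BMPs, held 742 tags at 11.87-fold on chromosome 9 at 119433482 to 119434763, at 79.2% of the gene. Bmp6, a ligand, held 453 tags at 11.88-fold at 5.10% of the gene, and Smad7, an inhibitor of the pathway, held 424 tags at 6.62-fold. Genes of the same pathway that were outside the list and were chosen after their values were seen were Tgfbr3, a co-receptor (558 tags, 15.62-fold), Acvr1c, a type I receptor (411 tags, 13.57-fold), and Bmp3, a ligand (405 tags, 17.54-fold). Pathway genes outside the list that lacked a member were not counted, so these 3 add nothing to the 3 of 27.

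The remaining lists had at most 1 gene each with a member. These were Sgce among 34 imprinted genes (450 tags, 9.10-fold), Sycp1 among 24 germline genes (404 tags, 5.23-fold) and Kit among 14 blood cell genes (438 tags, 10.39-fold). Sycp1 encodes a protein of the synaptonemal complex of meiosis, and Kit a receptor tyrosine kinase. None was found among 18 genes of the DNA methylation machinery, 10 small heat shock genes, 14 fibroblast, synovium and tendon genes, 12 endothelial and 12 skeletal muscle genes. The most tagged region at a methylation machinery gene had 392 tags, just under the limit. Over all lists, 6 of 226 genes (2.65%) had a member, a number too small to rank the lists. Longer genes offer more room for a region, and the lists were not matched on length.

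Among the other genes with a member, 4 are given with their values, chosen after those were seen and not as a group. Sumf2, a modifier of sulfatases, held 614 tags at 9.16-fold. Crtap, part of the complex that hydroxylates collagen prolines, held 600 tags at 5.80-fold. Sulf2, an extracellular heparan sulfatase, held 506 tags at 19.91-fold, and Pcolce2, an enhancer of procollagen processing, held 426 tags at 3.06-fold.

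Members seldom stood next to each other. Joined at gaps of up to 10 kb, they formed a single cluster, of 3 members on chromosome 2 between 98662197 and 98667359, a span of 5.16 kb. Its members held 1281, 739 and 1787 tags at 2.90-fold, 5.08-fold and 2.15-fold, and all 3 stood at 70.4% or more of the ceiling. Lrrc4c, the nearest protein-coding gene, lay 1031 kb or more away. The smallest gap between them was 578 bp. The median distance from a member to the nearest other member was 1224 kb, and 41 members (9.76%) had another within 100 kb. Regions of any tag count were close more often: 226 members (53.8%, Wilson interval 49.0 to 58.5) had one within 10 kb, against 44.6% of other regions, and the median distance was 8.83 kb against 12.3 kb.

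On a scale of 1 Mb, 356 windows held a member and 8 held 3 or more. The window at 99000001 to 100000000 of chromosome 15 held 5 of its 73 regions as members, at 8.92-fold to 12.27-fold. They lay in Spats2 (641 tags), Fam186b (435), Smarcd1, a subunit of the SWI/SNF chromatin remodeller (475), Lima1, an actin-binding protein (660), and the pseudogene Gm8973 (454). The window at 54000001 to 55000000 of chromosome 12 held 4 members outside coding genes, near Egln3, Sptssa, Eapp and Snx6. These 4 were close in both tags (407 to 462) and fold (5.41 to 6.41). The window at 115000001 to 116000000 of chromosome 5 also held 4, of which 1 lay in Pxn, a focal adhesion gene (466 tags, 11.25-fold), and 3 in Cit. The last of the 4 Cit members lay just past the window.

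Chromosome 5 had the most members, 46 or 0.303 per Mb (95% exact Poisson interval 0.222 to 0.404), against 0.172 per Mb over all autosomes. Chromosome 17 had 0.295 (0.196 to 0.427) and chromosome 11 had 0.254 (0.173 to 0.361). Chromosome 1 had 0.0922 (0.0546 to 0.146) and chromosome 3 had 0.0938 (0.0525 to 0.155). As a share of all listed regions of the chromosome, members were 1.71% on chromosome 5 (Wilson interval 1.28 to 2.27) and 0.705% on chromosome 19 (0.358 to 1.38), against 1.21% overall. Chromosome 19, which had the most listed regions per Mb of any autosome (19.48), had 8 members. The intervals of neighbouring chromosomes in this order overlap.

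**Figure D5:**
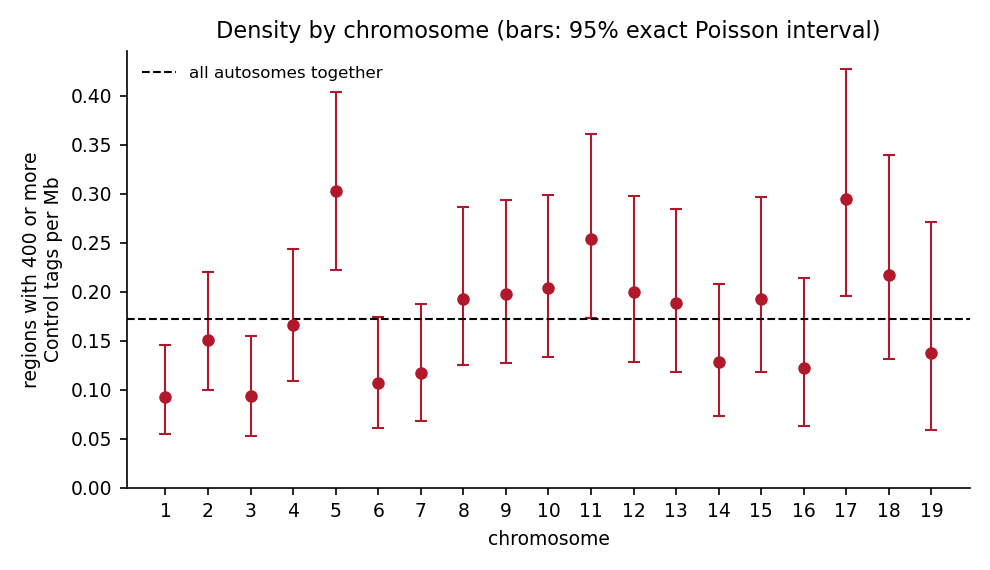
Members per Mb for each autosome in number order, with 95% exact Poisson intervals for counting error and a dashed line at 0.172 per Mb for all autosomes together. Chromosomes 5, 11 and 17 have intervals above the line, and chromosomes 1 and 3 below it. As a share of listed regions, the intervals of chromosomes 1, 3, 11 and 17 include the 1.21% of all autosomes.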

How the data were processed

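Per the file headers, MACS 1.4.2 searched the Control tags for enrichment over those of cKO at a p limit of 1e-10 and kept at most 1 tag per position. Per the submitters' processing notes, reads were placed on mm10; the aligner is not given in the sources used here. The deposited tag count is the unscaled count of Control tags. The fold is a ratio the authors' caller gave, the deposited score is the negative log10 of the caller's p times 10, and the FDR is a percent in the deposited list. The modelled shift was 58 bp.

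Genes, strands and promoter sequences came from RefSeq tables (GRCm38.p6, which shares mm10 coordinates) without exon models. A summit was placed at a gene end (within 1 kb), in a protein-coding gene, in another gene model or in intergenic sequence, in that order. All 235 list entries were matched, and genes on X and Y were then left out. Intervals were 95% Wilson, exact Poisson or order-statistic and cover counting error only. Placement and joining were tested on simulated data. Alternatives changed the tag limit, FDR limit, gene end window, joining distance and ranking.

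The members and lists were chosen with earlier results of these data known. Regions were named by rank on tags, length and fold, by nearness to the limit and by cluster. Genes were named for holding such regions, for holding several members, for members at their ends and by list. Scripts ran under Python 3.11.15 with pandas 2.3.3, NumPy 2.4.6, Matplotlib 3.10.9 and SciPy 1.17.1.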

Additional observations from a re-analysis of the deposited data

How the results depend on the processing

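With a limit of 300 tags the members numbered 2190, with a median length of 680 bp, a median fold of 11.9, 147 members within 10 kb of another, 1.36 members per Mb on chromosome 5 and 24 list genes with a member. With a limit of 600 tags the numbers were 40 members, 1069 bp, 0.033 per Mb on chromosome 5 and 1 list gene, with 40.0% of summits intergenic and 7.50% in other gene models. Taking the 420 autosomal regions with the most tags per kb, of which 180 were members, gave a median length of 646 bp and a median fold of 8.85. With gene ends widened to 2 kb, 9.52% of members were at one. Joining within 50 kb put 23 members beside another, and joining regions of any tag count put 226. Without the 10 members at 50% or more of the tag ceiling, an alternative chosen after seeing the data, 0 members had another within 10 kb. A lower or higher tag limit changes the number of members by construction. Counts of members near another, members per Mb and list genes cannot then move the opposite way. A wider gene end window or joining distance cannot reduce its own count. For the other values, folds and the remaining place shares included, the cause was not tested. In the other 37 alternatives the value stayed within its counting interval, or within 1.5 times for counts.

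Duplicate removal sets an upper bound on the tags of a region, and 1 library a group limits every comparison. Sequence, CpG density and repeats of the regions themselves were not analysed here. No paired analysis was possible because each group was 1 library.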
